A study of Mus musculus with 19 samples.

Results

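The DnaJ genes encode the J-domain co-chaperones (Hsp40 proteins) that bring client proteins to Hsp70 chaperones and switch on their ATPase. They were taken as all probe sets with a single gene symbol of the families Dnaja, Dnajb and Dnajc, keeping for each gene its probe set of highest average signal across the 19 arrays. This gave 41 genes of the 22180 genes measured. The RefSeq gene table lists 45 protein-coding DnaJ genes, and the other 4, Dnaja1, Dnajb8, Dnajc17 and Dnajc19, were read only by probe sets that carry several gene symbols, so no value is given for them. That leaves Dnajc15 and Dnaja3 of the mitochondrial members and leaves out Dnajc19, a subunit of the mitochondrial import motor.

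J-domain proteins set where an Hsp70 works: members on the ribosome, in the cytosol, in the endoplasmic reticulum (ER) and in mitochondria hand clients to Hspa8, Hspa5 (BiP) or Hspa9 (mortalin). Heat shock, acting through Hsf1, raises cytosolic members such as Dnajb1, and the unfolded protein response raises the lumenal ER members. In thymocytes of mice, Dnaja3 (Tid1) is known to be needed for the passage out of the double-negative stages. Dnajc15 (MCJ) sits in the mitochondrial inner membrane, where it is known in mice as a brake on respiratory complex I.

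Thymocytes of C57BL/6 mice were profiled in 3 populations and 2 genotypes. The Rptor-/- cells came from mice carrying loxP-flanked Rptor alleles (Raptorfl/fl) and CD2-cre, a recombinase driven by the CD2 promoter in lymphoid cells, and the WT cells from mice labelled only as wild type. Rptor encodes Raptor, the scaffold subunit of the kinase complex mTORC1, whose activity was not measured on these arrays. DN3a cells are double-negative thymocytes (CD25-high, CD44-negative, CD28-negative, without either T cell receptor), with 3 Rptor-/- and 3 WT arrays. Immature single-positive (ISP) cells, which were CD8-positive and negative for CD4 and TCRβ, had 3 Rptor-/- and 4 WT arrays. The cells called γδ T cells were sorted as lacking the surface markers NK1.1, Gr1, CD4, TCRβ and CD8, with 3 Rptor-/- and 3 WT arrays. The labels give no age and leave unsaid whether each replicate is another mouse, so p-values measure only how these samples scatter, and that scatter may be technical.

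All values below are log2 signals per probe set, and differences are on that log2 scale. Precision was limited by how many arrays each group had. The 7 ISP arrays had medians of 3.8 to 3.88 and the other 12 arrays had medians of 6.03 to 6.13, so levels are compared within ISP arrays, or among DN3a and γδ arrays, and not across. A genotype effect that differs between ISP and other cells cannot be told apart from one that differs between these sets of arrays. Rptor read 6.06, 6.19 and 6.34 on the Rptor-/- ISP arrays, against 6.49, 6.47, 6.34 and 6.47 on the WT ISP arrays, with the groups touching at one WT array. In DN3a cells it read 9.65, 9.55 and 9.75 on Rptor-/- arrays, against 10.34, 10.21 and 10.16 on WT arrays. In γδ T cells it read 9.48, 9.52 and 9.40 on Rptor-/- arrays, against 9.79, 9.77 and 9.74 on WT arrays, and in neither population did the groups overlap. Some markers were read for each label. Cd8a averaged 11.4 ± 0.02 in Rptor-/- and 11.3 ± 0.12 in WT ISP cells (SD, n = 3 and 4). It cannot be compared with the other arrays. Il2ra averaged 12.9 ± 0.06 in Rptor-/- and 12.6 ± 0.06 in WT DN3a cells, against 9.36 and 9.09 in γδ T cells. Sox13 averaged 10.6 ± 0.13 in Rptor-/- and 10.8 ± 0.27 in WT γδ T cells, against 8.49 and 7.98 in DN3a cells (SD, n = 3 each). Cd8b1 averaged 7.09 in Rptor-/- and 8.81 in WT γδ T cells, which were sorted as lacking CD8. The γδ receptor genes have no value here. Of markers of the DN3a stage, 4 of 5 measured were higher in Rptor-/- than in WT ISP cells, and their summed level was 10.77 to 10.93 on Rptor-/- and 10.13 to 10.35 on WT ISP arrays. DN3a-stage markers were also higher in Rptor-/- DN3a cells (2 of 5) and γδ T cells (1 of 5). Of the 3 ISP markers, 3 were lower in Rptor-/- γδ T cells and 1 in Rptor-/- ISP cells, and the 2 γδ markers measured were both higher in Rptor-/- DN3a cells. Of 4 T lineage markers 1 was higher in Rptor-/- ISP and 1 in Rptor-/- DN3a cells. Among markers of other cells, 1 of 5 dendritic markers was higher in Rptor-/- ISP and 1 in Rptor-/- γδ T cells, 1 of 4 stromal markers in Rptor-/- ISP and 1 in Rptor-/- DN3a cells, and 1 of 5 myeloid markers in Rptor-/- DN3a cells; 0 of the B cell, erythroid and NK cell markers passed in a genotype comparison. The part of these markers in the results below was not tested. In sorted bulk samples, fewer cells of a kind and less RNA per cell cannot be told apart.

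In Rptor-/- ISP cells, 12 of the 41 DnaJ genes differed from WT (limma, adjusted p under 0.05). Dnajc15, Dnajb1, Dnajc11, Dnaja3, Dnajb11, Dnaja2, Dnajc2 and Dnajc8 fell, and Dnajc14, Dnajc3, Dnajc18 and Dnajc7 rose. That is 29.3% of the DnaJ genes, against 12.4% of all genes, of which 6.57% were lower and 5.87% higher. Only 1 to 3 of the 41 members lay under the 25th percentile of all genes in any group. Shares of members and of all genes, here and below, were thus not matched for signal. The median difference was -0.05 over the DnaJ genes and -0.0039 over all genes, and calls lay on both sides. The groups did not overlap for 16 of the 41 members (39% of them, against 16.7% of all genes). At an unadjusted p under 0.05 there were 11 lower and 7 higher members, where 21.9% of all genes lay under that value. Apart from Dnajc15, each call was a difference of less than 0.6. The balance of 8 lower to 4 higher was not kept under other settings. Quantile normalization gave 4 lower and 4 higher, where 2514 of the 22180 genes passed. When only the 7 ISP arrays were fitted, 3 of the 12 members passed, Dnajc15 lower and Dnajc14 and Dnajc7 higher. In that fit 3 of all 41 members passed, beside 1313 of the 22180 genes, so the higher share of members rested on the joint model. Without Rptor-/- array 3 there were 2 lower and 3 higher, where 1899 of the 22180 genes passed. Only Dnajc15 and Dnajc14 were called under each of the 14 alternative settings.

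**Figure D1:**
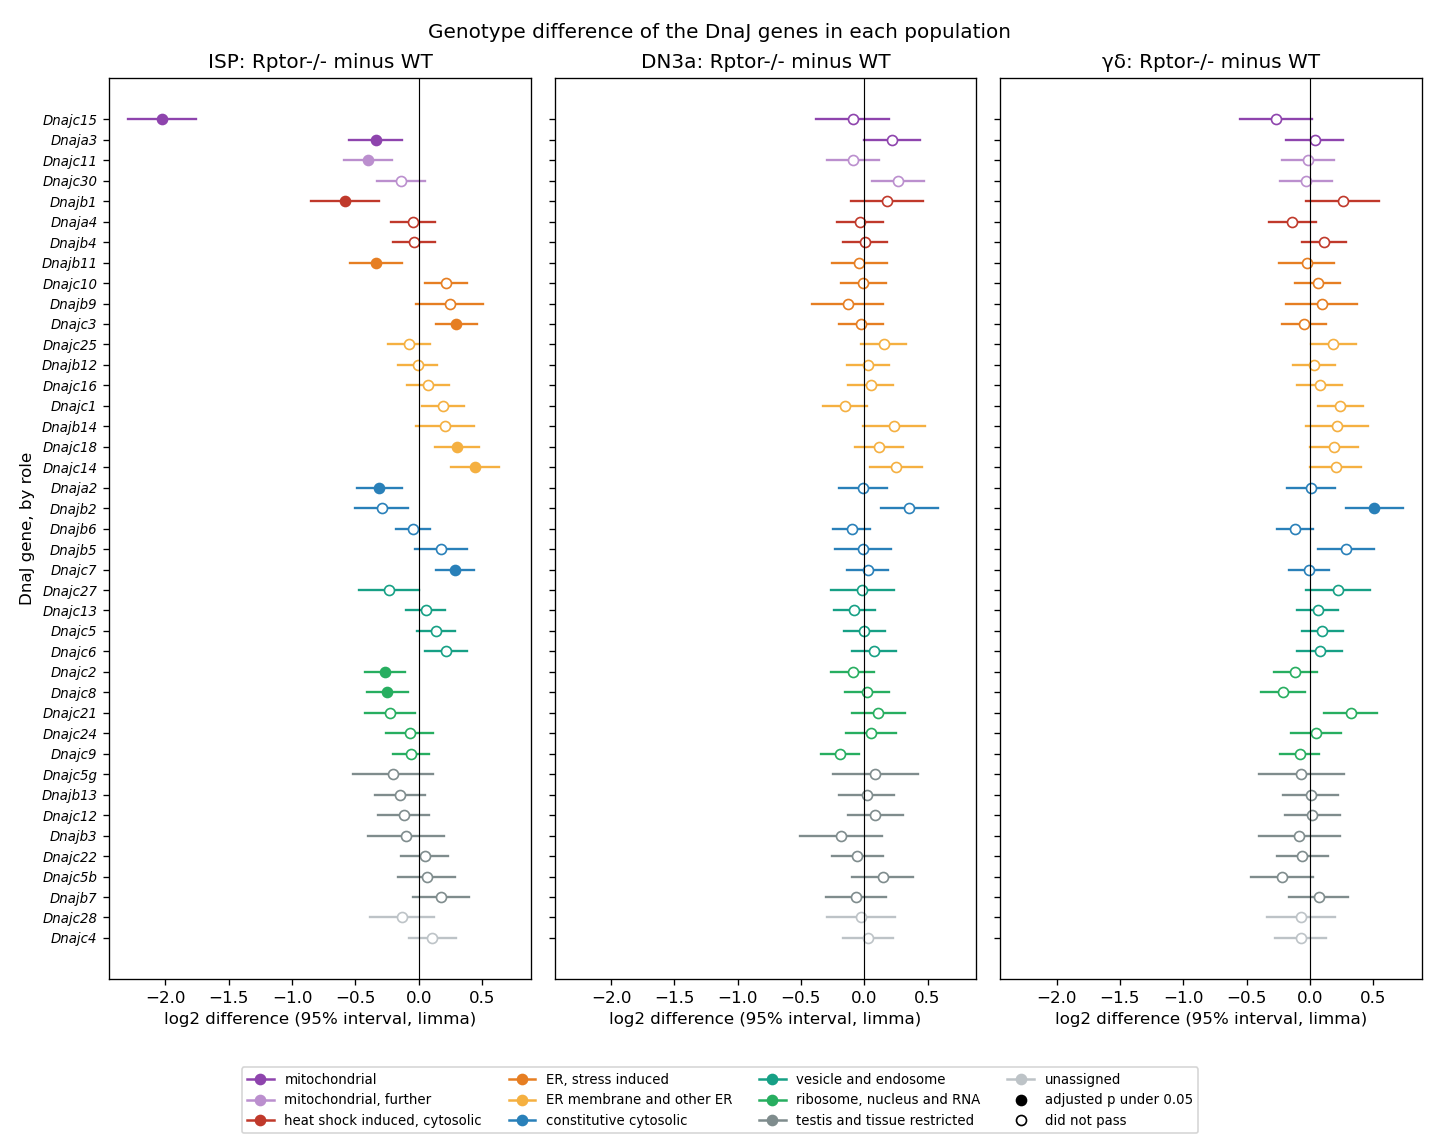
Log2 differences of the 41 DnaJ genes, Rptor-/- minus WT, in ISP, DN3a and γδ cells, with limma 95% intervals. Colours give the role and filled points passed an adjusted p under 0.05: 12 members in ISP cells, 0 in DN3a cells and 1, Dnajb2, in γδ T cells. Dnajc15 at -2.03 in ISP cells lies apart from the other members.

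Dnajc15 is encoded on the minus strand of mouse chromosome 14, and the window of 250 bases before to 50 bases after its start (RefSeq, GRCm38.p6, chr14:77874868-77875167, minus strand) is shown because this gene carried the largest difference of the family. Capitals mark CG dinucleotides, since the human gene is known to be silenced by CpG methylation in tumour cells. Methylation was not measured here.
Dnajc15 promoter: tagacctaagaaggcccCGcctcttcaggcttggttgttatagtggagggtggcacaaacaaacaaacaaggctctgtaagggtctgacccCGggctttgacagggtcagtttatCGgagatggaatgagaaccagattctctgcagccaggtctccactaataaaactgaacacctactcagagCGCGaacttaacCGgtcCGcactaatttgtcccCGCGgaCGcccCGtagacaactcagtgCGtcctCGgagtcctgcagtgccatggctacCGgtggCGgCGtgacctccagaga
The window holds 16 CG dinucleotides, the 67th percentile of all 32851 windows of the table (median 7), and 30 of the 43 windows of other members hold more. Of its bases 55% are G or C. It holds none of the heat shock, ER stress, E-box or CCAAT motifs that were searched.

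Dnajc15 read 7.34, 7.32 and 7.09 on the Rptor-/- ISP arrays, against 9.05, 9.03, 9.55 and 9.47 on the WT ISP arrays. Each Rptor-/- array lay well below each WT array. The means were 7.25 ± 0.14 in Rptor-/- and 9.27 ± 0.27 in WT ISP cells (SD, n = 3 and 4), so that 24.5% of the WT signal was left. With a difference of -2.03 (SE 0.13, 95% interval -2.29 to -1.76, adjusted p = 6.19e-09), it had rank 7 by p among all genes. The exact two-sided permutation test gave p = 0.0571, the smallest it can give with 3 against 4 arrays. Over the 14 alternatives the difference ran between -2.11 and -1.74 and its adjusted p did not exceed 0.00351.

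No such difference was seen in the other populations. In DN3a cells Dnajc15 read 8.84, 9.20 and 9.24 on Rptor-/- arrays, against 9.11, 9.09 and 9.35 on WT arrays, and the groups overlapped. The difference was -0.09 (95% interval -0.38 to 0.19, adjusted p = 0.906). On γδ arrays it read 8.69, 8.87 and 8.91 in Rptor-/- cells, against 9.13, 9.15 and 8.99 in WT cells. There the groups did not overlap, yet the difference of -0.27 (95% interval -0.55 to 0.02) missed the threshold (adjusted p = 0.346). The genotype effect in ISP cells differed from that in DN3a cells by -1.93 (SE 0.19, adjusted p = 9.35e-06) and from that in γδ T cells by -1.76 (SE 0.19, adjusted p = 2.3e-05).

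**Figure D2:**
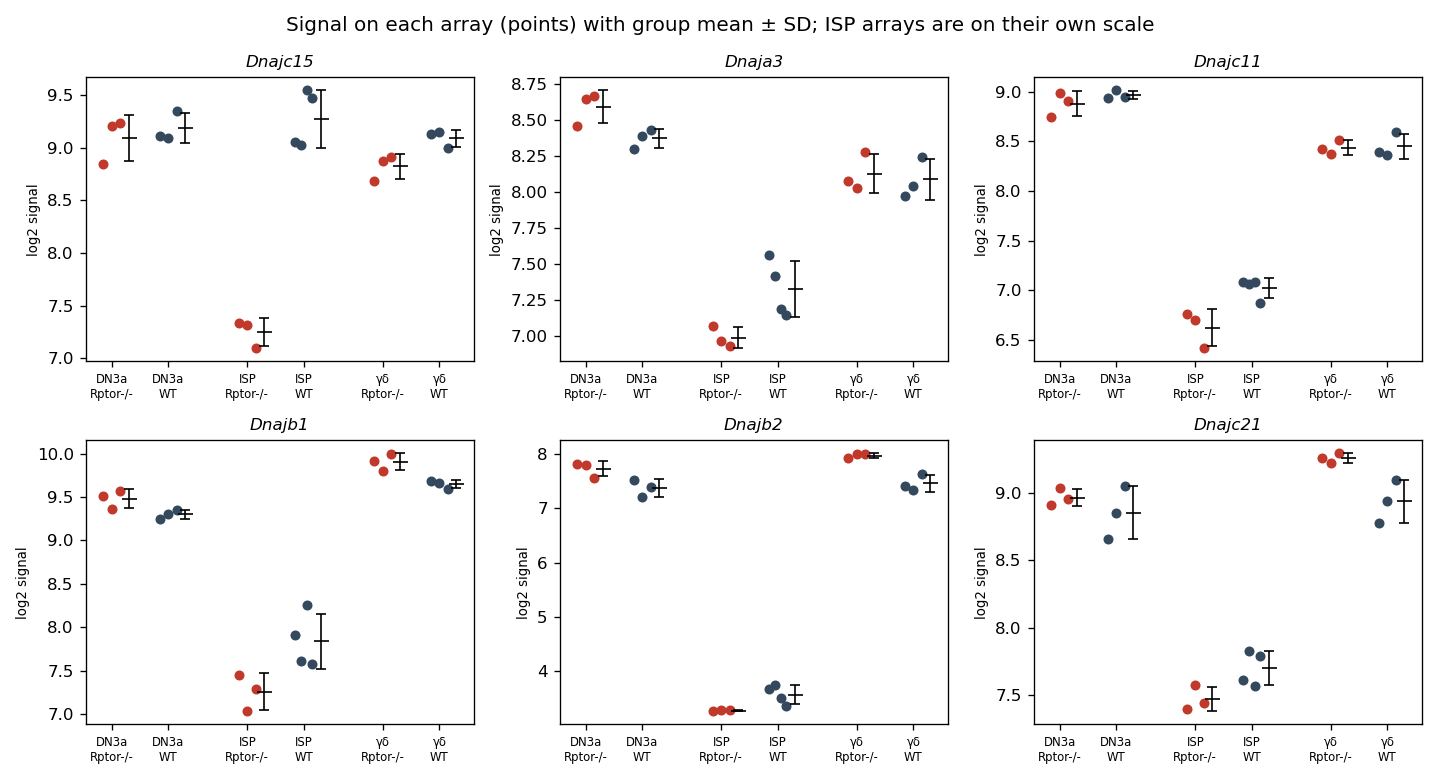
Log2 signal of Dnajc15, Dnaja3, Dnajc11, Dnajb1, Dnajb2 and Dnajc21 on each array (points) with group mean and SD (bars), Rptor-/- in red and WT in dark blue; ISP arrays are on a scale of their own. Dnajc15 sits at 7.09 to 7.34 on Rptor-/- and 9.03 to 9.55 on WT ISP arrays, while its groups lie close together in DN3a and γδ cells.

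The other mitochondrial members moved by much less. Dnaja3, the matrix partner of Hspa9, read 7.07, 6.96 and 6.93 on Rptor-/- ISP arrays, against 7.56, 7.41, 7.18 and 7.14 on WT ISP arrays. All 3 Rptor-/- arrays were below the WT arrays, the nearest pair by a small gap, with a difference of -0.34 (SE 0.10, adjusted p = 0.0296). Dnaja3 has 3 probe sets, and their differences were 0.12, -0.09 and -0.34, the last for the brightest one used here. The mean of all 3 gave -0.10 (adjusted p = 0.624), and the call was also lost when only the ISP arrays were fitted and without Rptor-/- array 2 or 3 or WT array 1 or 2. On DN3a arrays Dnaja3 read 8.46, 8.65 and 8.67 in Rptor-/- cells and 8.30, 8.39 and 8.43 in WT cells, a difference of 0.22 that did not pass (adjusted p = 0.493). In γδ T cells its difference was 0.04 (adjusted p = 0.899).

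Dnajc11, a protein of the mitochondrial membranes linked to cristae organisation, fell in ISP cells. It read 6.76, 6.70 and 6.42 on Rptor-/- ISP arrays, against 7.09, 7.06, 7.08 and 6.87 on WT ISP arrays, without overlap. The difference was -0.40 (SE 0.09, adjusted p = 0.00478). The call was lost with only the ISP arrays (adjusted p = 0.0656) and without Rptor-/- array 3, the lowest. Dnajc30, a mitochondrial inner-membrane member, overlapped between genotypes in ISP cells (-0.14, adjusted p = 0.46). In DN3a cells its Rptor-/- arrays at 7.06, 7.22 and 7.12 lay above the WT arrays at 6.87, 6.83 and 6.90, but the difference of 0.27 did not pass (adjusted p = 0.284).

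Of 13 genes of the Hsp70 and import machinery with which the mitochondrial members work, 7 were lower and 0 higher in Rptor-/- ISP cells and 6 did not pass, where 6.57% of all genes were lower and 5.87% higher. Their median was -0.29. Hspa9 read 9.94, 9.82 and 9.68 on Rptor-/- ISP arrays, against 10.26, 10.35, 10.07 and 10.25 on WT ISP arrays (-0.42, adjusted p = 0.00316). Grpel1, its nucleotide exchange factor, fell by 0.73 (adjusted p = 5.24e-05), Timm50 and Timm23 of the inner-membrane translocase by 0.61 and 0.30, and the chaperonins Hspd1 and Hspe1 by 0.43 and 0.44. Timm44 (-0.14, adjusted p = 0.265) and Pam16 (-0.17, adjusted p = 0.222), the subunits that seat J-domain proteins at the translocase, did not pass. In DN3a and γδ cells 0 of the 13 passed, and there 0 and 1 had an unadjusted p under 0.05 (10.6% and 16.3% of all genes).

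Dnajb1, the main heat-shock-induced Hsp40 of the cytosol, was the one heat shock member that fell in ISP cells. Its promoter window (RefSeq, GRCm38.p6, chr8:83607925-83608224, plus strand, the first of 2 starts in the table) is printed because this gene follows Hsf1. Capitals mark 2 matches to the CCAAT box, written CCAAT or its reverse complement ATTGG.
Dnajb1 promoter: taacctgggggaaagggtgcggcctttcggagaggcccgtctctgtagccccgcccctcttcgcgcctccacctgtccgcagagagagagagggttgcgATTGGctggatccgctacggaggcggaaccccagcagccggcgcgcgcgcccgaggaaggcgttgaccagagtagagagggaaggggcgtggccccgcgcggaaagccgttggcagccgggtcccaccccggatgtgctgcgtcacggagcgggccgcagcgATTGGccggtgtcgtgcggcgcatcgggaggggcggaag
Neither window of Dnajb1 holds the letters GAANNTTC, the core of a heat shock element, on either strand. Of all 27025 genes with a window, 9.04% hold GAANNTTC in at least 1 window. A longer form with another GAA after a gap of 2 bases is held by 0.662% of them, and a CCAAT box by 41.1%. Among the 33 members with a window used here, 4 (12.1%) hold GAANNTTC, 1 of them (Dnajb6) within the longer form, and 13 (39.4%) hold a CCAAT box.

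Dnajb1 read 7.45, 7.03 and 7.30 on the Rptor-/- ISP arrays, against 7.91, 7.61, 8.26 and 7.57 on the WT ISP arrays. The WT arrays were spread over a wider range but none reached down to an Rptor-/- array. The difference was -0.58 (SE 0.13, 95% interval -0.85 to -0.31, adjusted p = 0.0041), and 67% of the WT signal was left. It missed the threshold when only the ISP arrays were fitted (adjusted p = 0.137). In DN3a cells the order was the other way round, at 9.51, 9.36 and 9.58 in Rptor-/- and 9.25, 9.31 and 9.35 in WT cells, and likewise in γδ T cells, at 9.92, 9.80 and 9.999 in Rptor-/- and 9.69, 9.66 and 9.59 in WT cells. Neither population's groups overlapped, and neither difference passed (0.18, adjusted p = 0.733, and 0.26, adjusted p = 0.363). The effect in ISP cells differed from that in DN3a cells by -0.76 (SE 0.19, adjusted p = 0.0177) and from that in γδ T cells by -0.84 (SE 0.19, adjusted p = 0.0114). Without Rptor-/- ISP array 2 the difference from DN3a cells was -0.65 (adjusted p = 0.0558).

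The other heat shock members were close to equal between genotypes in ISP cells. Dnajb4 read 4.35, 4.14 and 4.34 on Rptor-/- ISP arrays, against 4.29, 4.46, 4.29 and 4.21 on WT ISP arrays (-0.03, 95% interval -0.20 to 0.13). Dnaja4 read 3.29 on all 3 Rptor-/- ISP arrays, against 3.37, 3.39, 3.29 and 3.29 on WT ISP arrays, which is below the median of an ISP array. Their groups overlapped also in DN3a and γδ cells.

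Of 15 cytosolic Hsp70 and exchange factor genes, 8 were lower and 0 higher in Rptor-/- ISP cells and 7 did not pass, against 6.57% of all genes lower and 5.87% higher. Their median was -0.32. Hspa1a, the stress-inducible Hsp70, read 4.62, 3.45 and 4.76 on Rptor-/- ISP arrays, against 9.44, 9.38, 9.99 and 7.26 on WT ISP arrays. Hspa8, the constitutive Hsp70, fell by 0.18 (adjusted p = 0.0492), and the Hsp110 gene Hspa4 by 0.49 (adjusted p = 8.27e-04). The exchange factors Bag1 (-0.19, adjusted p = 0.154) and Bag3 (-0.28, adjusted p = 0.0764) did not pass. In DN3a cells Hspa1a ran the other way, at 10.67, 10.35 and 11.40 in Rptor-/- and 9.73, 8.79 and 7.68 in WT cells (2.07, adjusted p = 0.148). In γδ T cells it read 9.25, 8.04 and 9.89 in Rptor-/- and 8.30, 7.61 and 6.80 in WT cells, with overlap (1.49, adjusted p = 0.23).

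Among 10 other heat shock genes measured, 5 fell in Rptor-/- ISP cells, 0 rose and 5 did not pass (6.57% of all genes fell and 5.87% rose). They were Hsf2, a heat shock transcription factor, by 0.70, Fkbp4 by 0.60, Ahsa1 by 0.46, Hsp90aa1 by 0.46 and Stip1 by 0.45, the last 4 being Hsp90 and its co-chaperones. Hsf1 has no value here. Immediate early genes, which rise on handling or stimulation, moved alongside: 8 of 13 were lower in Rptor-/- ISP cells and 0 higher (6.57% and 5.87% of all genes), and their summed level was 10.87 to 11.12 on Rptor-/- and 11.31 to 11.93 on WT ISP arrays. Their part in the Dnajb1 result was not tested. In DN3a and γδ cells 0 genes of these 3 lists passed by limma. At an unadjusted p under 0.05 lay 10.6% of all genes in DN3a and 16.3% in γδ T cells. There the 15 cytosolic Hsp70 genes had 0 lower and 3 higher in DN3a and 1 lower and 3 higher in γδ T cells. The 10 other heat shock genes had 1 higher in each, and the 13 immediate early genes 1 higher in DN3a and 4 higher in γδ T cells.

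**Figure D3:**
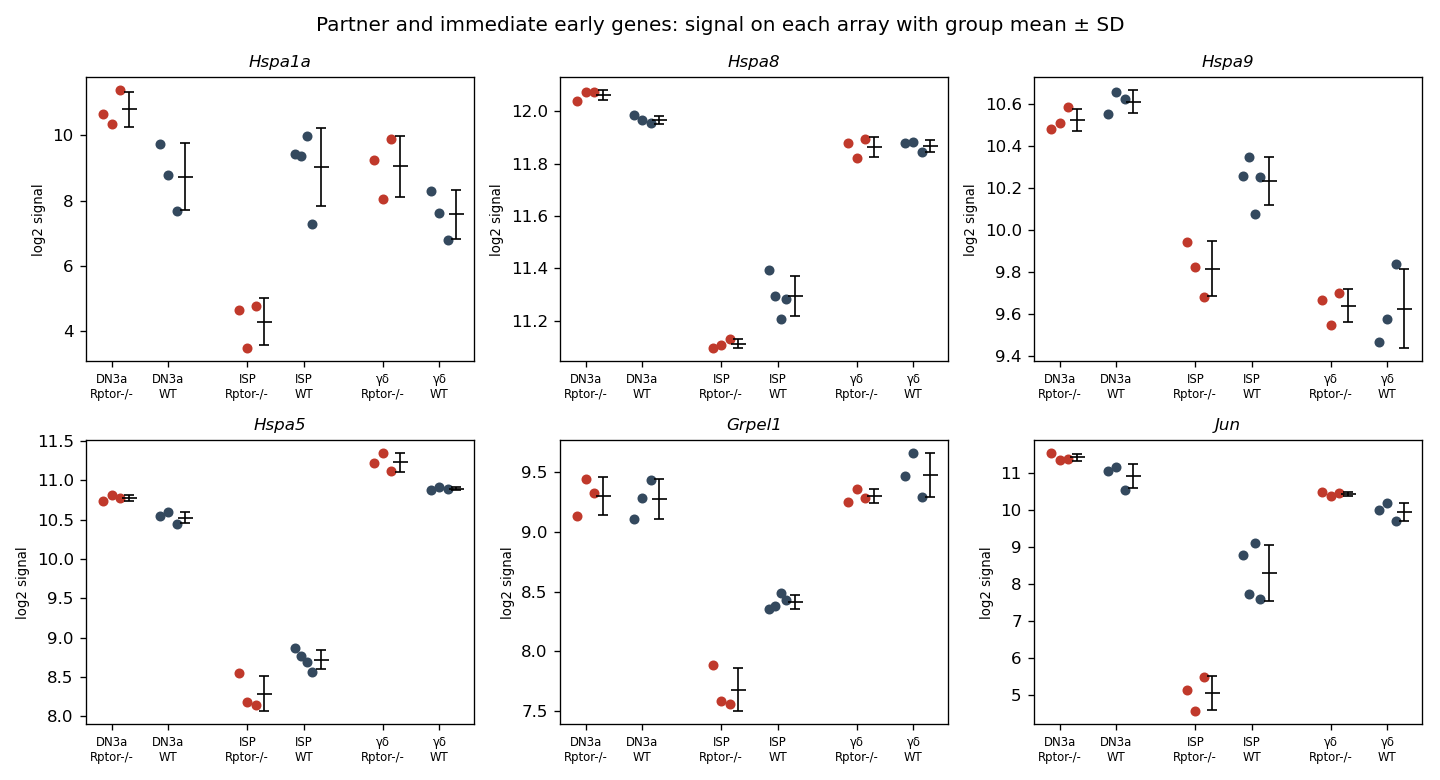
Log2 signal of the Hsp70 genes Hspa1a, Hspa8, Hspa9 and Hspa5, the exchange factor Grpel1 and the immediate early gene Jun on each array (points) with group mean and SD (bars), Rptor-/- in red and WT in dark blue; ISP arrays are on a scale of their own. Within ISP cells the Rptor-/- arrays are the lower ones in each panel, with Hspa1a at 3.45 to 4.76 on Rptor-/- and 7.26 to 9.99 on WT arrays.

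The 4 stress-induced members of the ER lumen did not move as a block in ISP cells. Dnajb11 (ERdj3), which helps Hspa5 to bind unfolded clients, fell, and Dnajc3 (p58IPK), an Hspa5 co-chaperone that the unfolded protein response raises, rose. Dnajb9 (ERdj4) and Dnajc10 (ERdj5, a disulphide reductase) did not pass. The promoter windows of Dnajb11 (RefSeq, GRCm38.p6, chr16:22857595-22857894, plus strand) and Dnajc3 (chr14:118937682-118937981, plus strand) are set side by side because both are classed as targets of the same response and moved in opposite directions. Capitals mark 5 CCAAT boxes (either strand) in the first and, in the second, the one match to the ER stress element (CCAAT, 9 bases of any kind, then CCACG) at bases 146 to 164.
Dnajb11 promoter: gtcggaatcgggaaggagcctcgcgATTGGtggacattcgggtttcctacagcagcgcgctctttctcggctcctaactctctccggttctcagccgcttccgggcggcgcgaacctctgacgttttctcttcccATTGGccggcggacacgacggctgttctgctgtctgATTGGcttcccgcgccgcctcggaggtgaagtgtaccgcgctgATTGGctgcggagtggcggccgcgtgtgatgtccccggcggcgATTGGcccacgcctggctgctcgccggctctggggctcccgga
Dnajc3 promoter: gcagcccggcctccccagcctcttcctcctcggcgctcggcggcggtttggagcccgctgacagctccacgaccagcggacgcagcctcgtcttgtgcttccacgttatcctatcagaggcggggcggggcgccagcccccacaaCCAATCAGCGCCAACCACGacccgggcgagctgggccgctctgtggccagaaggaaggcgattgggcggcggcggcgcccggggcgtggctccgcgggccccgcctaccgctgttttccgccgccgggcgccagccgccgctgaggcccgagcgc
This form of the ER stress element was found in 0.137% of all genes with a window and in 1 of the 33 members. Forms with another spacing or order were not searched. The last marked box of the Dnajb11 window runs on as ATTGGcccacg, so no absence of such an element from that window was shown. The E-box CACGTG was found in 8.09% of all genes with a window and in 4 members, among them Dnajb9.

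Dnajb11 read 7.99, 7.92 and 7.97 on Rptor-/- ISP arrays, against 8.46, 8.36, 8.13 and 8.24 on WT ISP arrays, without overlap. Its difference of -0.34 (SE 0.10, adjusted p = 0.0249) lost its call in 7 of 14 alternatives, with adjusted p up to 0.0942. Dnajc3 read 9.73, 9.59 and 9.54 on Rptor-/- ISP arrays, against 9.35, 9.33, 9.16 and 9.46 on WT ISP arrays. Here each Rptor-/- array was above each WT array, with a difference of 0.30 (SE 0.08, adjusted p = 0.0133). The adjusted p was 0.0885 with only the ISP arrays and 0.0817 without Rptor-/- array 1.

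Dnajc10 read 7.89, 7.63 and 7.67 on Rptor-/- ISP arrays, against 7.43, 7.48, 7.59 and 7.56 on WT ISP arrays (0.22, adjusted p = 0.0856). Dnajb9 read 8.11, 7.98 and 7.83 on Rptor-/- ISP arrays, against 7.74, 7.48, 7.53 and 8.15 on WT ISP arrays (0.25, adjusted p = 0.276). WT array 4 stood above all Rptor-/- arrays, and without it the difference was 0.39 (adjusted p = 0.015). In DN3a cells the differences of the 4 genes ran between -0.13 and -0.01, and in γδ T cells between -0.05 and 0.09, and none passed.

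Their partner Hspa5 fell in ISP cells, with 8.55, 8.18 and 8.14 on Rptor-/- arrays, against 8.86, 8.76, 8.68 and 8.57 on WT arrays (-0.43, adjusted p = 0.00314). Among 5 ER partners 3 were lower and 0 higher (6.57% and 5.87% of all genes): Hspa5, its exchange factor Hyou1 (-0.54, adjusted p = 0.00186) and Sdf2l1 (-0.89, adjusted p = 9.19e-05), which forms a complex with Dnajb11 and Hspa5. Of 15 other genes of the unfolded protein response 3 fell, 2 rose and 10 did not pass, beside the same shares of all genes. Calreticulin (Calr) fell by 0.50, Creld2 by 0.30 and Herpud1 by 0.28, while Edem1 and Sel1l, which act in the disposal of ER proteins, rose by 0.57 and 0.34. Sec63, a J-domain protein of the ER translocon whose symbol is outside the DnaJ family, rose by 0.25 (adjusted p = 0.0256). In the other populations Hspa5 differed by 0.25 in DN3a cells (adjusted p = 0.342) and by 0.33 in γδ T cells (adjusted p = 0.0765), neither passing.

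Of the 7 members in the ER membrane or elsewhere in the ER, 2 rose in Rptor-/- ISP cells and 0 fell. Dnajc14, known for the export of receptors from the ER, read 7.46, 7.53 and 7.55 on Rptor-/- ISP arrays, against 7.14, 7.05, 7.24 and 6.86 on WT ISP arrays. All Rptor-/- arrays were above all WT arrays, with a difference of 0.44 (SE 0.09, 95% interval 0.25 to 0.63, adjusted p = 0.00215). The Rptor-/- arrays were the higher ones also in DN3a cells (8.81, 9.13 and 8.82 against 8.71, 8.61 and 8.68 in WT) and in γδ T cells (9.13, 9.14 and 9.25 against 8.97, 8.88 and 9.05 in WT). Those differences, 0.25 (adjusted p = 0.326) and 0.21 (adjusted p = 0.3), did not pass. The effect in ISP cells differed from them by 0.19 (95% interval -0.09 to 0.47) and 0.24 (95% interval -0.04 to 0.51), so no difference between populations was shown.

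Dnajc18, an ER membrane member, read 6.78, 6.92 and 6.82 on Rptor-/- ISP arrays, against 6.38, 6.63, 6.63 and 6.51 on WT ISP arrays. The groups were apart by 0.30 (SE 0.08, adjusted p = 0.0187). The call was lost with only the ISP arrays (adjusted p = 0.0716) and without Rptor-/- array 2 or 3 or WT array 1. The other 5 ranged from -0.07 (Dnajc25) to 0.21 (Dnajb14), and among them Dnajc1, a J-domain protein of the ER membrane that binds ribosomes, had groups that did not overlap (0.19, adjusted p = 0.132).

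**Figure D4:**
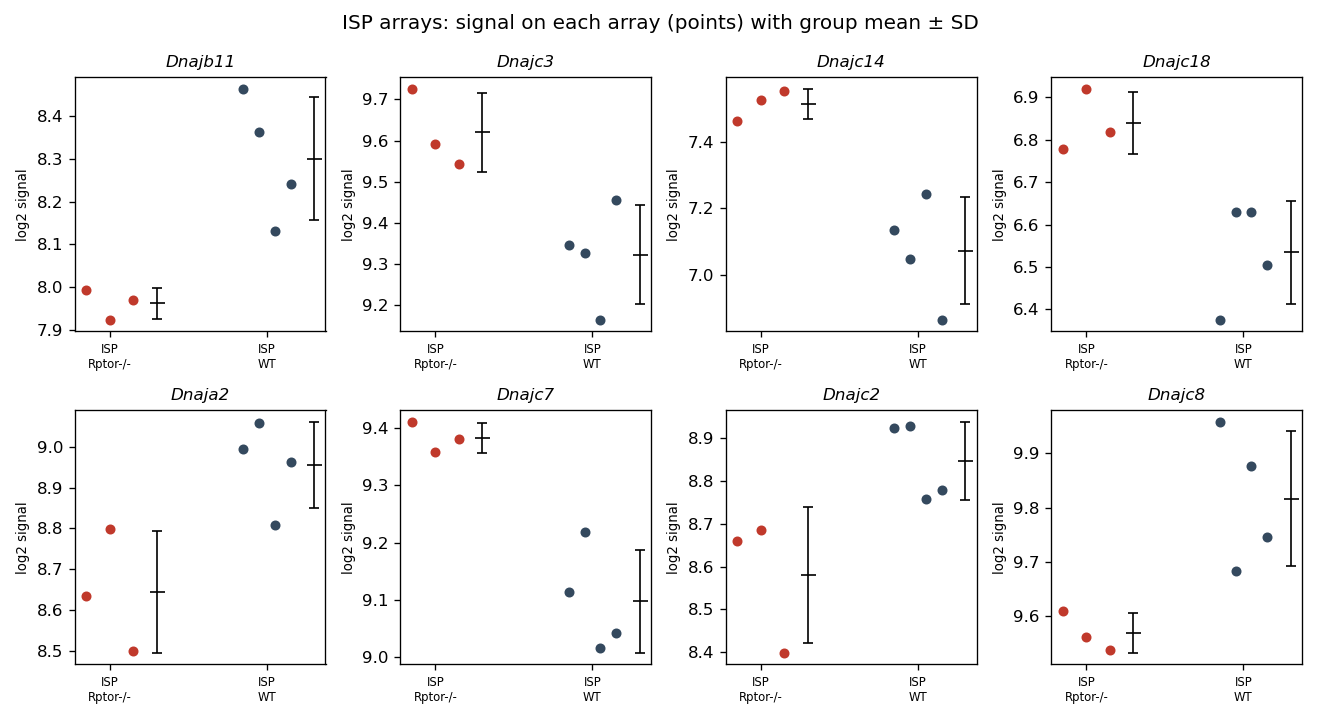
Log2 signal on each ISP array (points) of Dnajb11, Dnajc3, Dnajc14, Dnajc18, Dnaja2, Dnajc7, Dnajc2 and Dnajc8, with group mean and SD (bars), Rptor-/- in red on the left and WT in dark blue on the right of each panel. No panel has an overlap between genotypes; the gap is widest for Dnajc14, at 7.46 to 7.55 on Rptor-/- and 6.86 to 7.24 on WT arrays.

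Among 5 general cytosolic members 1 fell and 1 rose in ISP cells. Dnaja2, a partner of Hspa8 in refolding, read 8.64, 8.80 and 8.50 on Rptor-/- ISP arrays, against 8.99, 9.06, 8.81 and 8.96 on WT ISP arrays. Rptor-/- array 2 came within 0.01 of the lowest WT array. The difference of -0.31 (SE 0.08, adjusted p = 0.0178) kept its call in 9 of 14 alternatives. Dnajc7 (Tpr2), which works between Hsp70 and Hsp90, read 9.41, 9.36 and 9.38 on Rptor-/- ISP arrays, against 9.11, 9.22, 9.02 and 9.04 on WT ISP arrays. The Rptor-/- arrays lay close together above the WT arrays, at a difference of 0.29 (SE 0.07, adjusted p = 0.0109).

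The 5 members tied to ribosomes, the nucleus and RNA were all at or below WT in ISP cells, from -0.27 to -0.06, and 2 passed. Dnajc2 (MPP11), which sits on the ribosome and aids nascent chains, read 8.66, 8.69 and 8.40 on Rptor-/- ISP arrays, against 8.92, 8.93, 8.76 and 8.78 on WT ISP arrays (-0.27, SE 0.08, adjusted p = 0.0253). Without Rptor-/- array 3, the lowest, the difference was -0.17 (adjusted p = 0.219). Dnajc8, a splicing-associated member, read 9.61, 9.56 and 9.54 on Rptor-/- ISP arrays, against 9.96, 9.68, 9.88 and 9.75 on WT ISP arrays (-0.25, SE 0.08, adjusted p = 0.0414). Both sets of arrays were apart, but the call for Dnajc8 was lost in 7 of 14 alternatives. Dnajc21, needed for large ribosomal subunits, had overlapping groups (-0.23, adjusted p = 0.144).

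Members outside these roles stayed short of the threshold in ISP cells. None of the 4 vesicle and endosome members passed, although Dnajc6 (auxilin, which uncoats clathrin vesicles) had Rptor-/- arrays at 7.67 to 7.77 above WT arrays at 7.37 to 7.65 (0.22, adjusted p = 0.0852) and Dnajc27 had -0.24 (adjusted p = 0.225). None of the 7 members known from testis, cilia or single tissues passed, with differences of -0.20 to 0.18, and 2 of them, Dnajb7 and Dnajc5g, lay under the 25th percentile of all genes in at least 5 of the 6 groups. Dnajc4 and Dnajc28, for which no role is given here, differed by 0.11 and -0.13.

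In DN3a cells 0 of the 41 members passed, against 0.983% of all genes (0.271% lower and 0.712% higher). At an unadjusted p under 0.05 there were 1 lower and 3 higher, where 10.6% of all genes lay under that value. The groups did not overlap for 8 members (19.5%, against 17.1% of all genes), and the median difference was 0.0054. The largest positive differences were those of Dnajb2, at 0.36 (95% interval 0.13 to 0.58, adjusted p = 0.152), and Dnajc30. On the other side stood Dnajc9, a histone chaperone, at -0.19 (adjusted p = 0.306), and Dnajb3 at -0.18.

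In γδ T cells 1 of the 41 members passed, against 3.05% of all genes (1.28% lower and 1.77% higher). This was Dnajb2, a cytosolic member that carries ubiquitin-binding motifs and passes clients to the proteasome. It read 7.93, 8.0 and 8.01 on Rptor-/- γδ arrays, against 7.42, 7.34 and 7.64 on WT γδ arrays. The Rptor-/- arrays lay close together above all WT arrays, at a difference of 0.51 (SE 0.11, 95% interval 0.28 to 0.73, adjusted p = 0.0115). Without WT array 2, the lowest, it was 0.45 (adjusted p = 0.0714). At an unadjusted p under 0.05 there were 1 lower and 7 higher members (16.3% of all genes lay under that value), the groups did not overlap for 14 members (34.1%, against 21% of all genes) and the median was 0.04. Dnajc21 had 9.26, 9.22 and 9.29 in Rptor-/- and 8.78, 8.94 and 9.09 in WT γδ T cells (0.32, adjusted p = 0.0972), and Dnajb5 had a difference of 0.28 (adjusted p = 0.167). At the low end were Dnajc15 and Dnajc5b (-0.22).

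Dnajb2 also had higher Rptor-/- arrays in DN3a cells, at 7.83, 7.81 and 7.57 against 7.53, 7.21 and 7.39 in WT cells. On ISP arrays it read 3.25, 3.28 and 3.27 in Rptor-/- cells, against 3.66, 3.74, 3.49 and 3.34 in WT cells (-0.29, adjusted p = 0.0657). All of these lie below the median of an ISP array, a range in which array signals are known to compress differences. The genotype effect in ISP cells differed by -0.65 from DN3a cells (SE 0.15, adjusted p = 0.0106) and by -0.80 from γδ T cells (SE 0.15, adjusted p = 0.00264).

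Testing the difference between populations itself, 4 members had a lower genotype effect in ISP than in DN3a cells and 0 a higher one (9.76% of members, against 7.01% of all genes, 4.12% lower and 2.89% higher). They were Dnajc15, Dnajb1, Dnajb2 and Dnaja3 (-0.56, adjusted p = 0.0251). Against γδ T cells 4 members had a lower and 0 a higher effect in ISP cells (9.76%, against 5.78% of all genes, 3.63% lower and 2.16% higher), namely Dnajc15, Dnajb1, Dnajb2 and Dnajc21 (-0.55, adjusted p = 0.0229). The call of Dnaja3 was lost in 7 and that of Dnajc21 in 4 of 20 alternatives, and without Rptor-/- ISP array 2 2 members were left in the comparison with DN3a cells. Both comparisons use the same ISP arrays, which have a scale of their own, so population and set of arrays cannot be told apart. Between γδ and DN3a cells 0 members differed in genotype effect (0.6% of all genes did), with 2 lower and 1 higher at an unadjusted p under 0.05 by limma (9.3% of all genes).

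The members were next compared between γδ T cells and DN3a cells, which were on one scale. In Rptor-/- cells 20 of 41 members differed (48.8%, against 27.6% of all genes), 7 lower and 13 higher in γδ T cells. Under quantile normalization 25 differed, 12 lower and 13 higher. At an unadjusted p under 0.05 there were 12 lower and 16 higher members in Rptor-/- cells (36.7% of all genes) and 10 lower and 13 higher in WT cells (32.8% of all genes). In WT cells 15 of 41 differed (36.6%, against 25.1% of all genes), 5 lower and 10 higher, and under quantile normalization 18 differed, 9 lower and 9 higher. The groups did not overlap for 28 members in Rptor-/- cells (68.3%, against 37.1% of all genes) and for 23 in WT cells (56.1%, against 38.9%). These shares too were not matched for signal. These comparisons share no arrays. There were 13 members called in both, 65% of the Rptor-/- and 86.7% of the WT calls, and each had the same direction in the 2 genotypes. The same overlap was not counted over all genes, so it is not shown to be particular to the members.

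**Figure D5:**
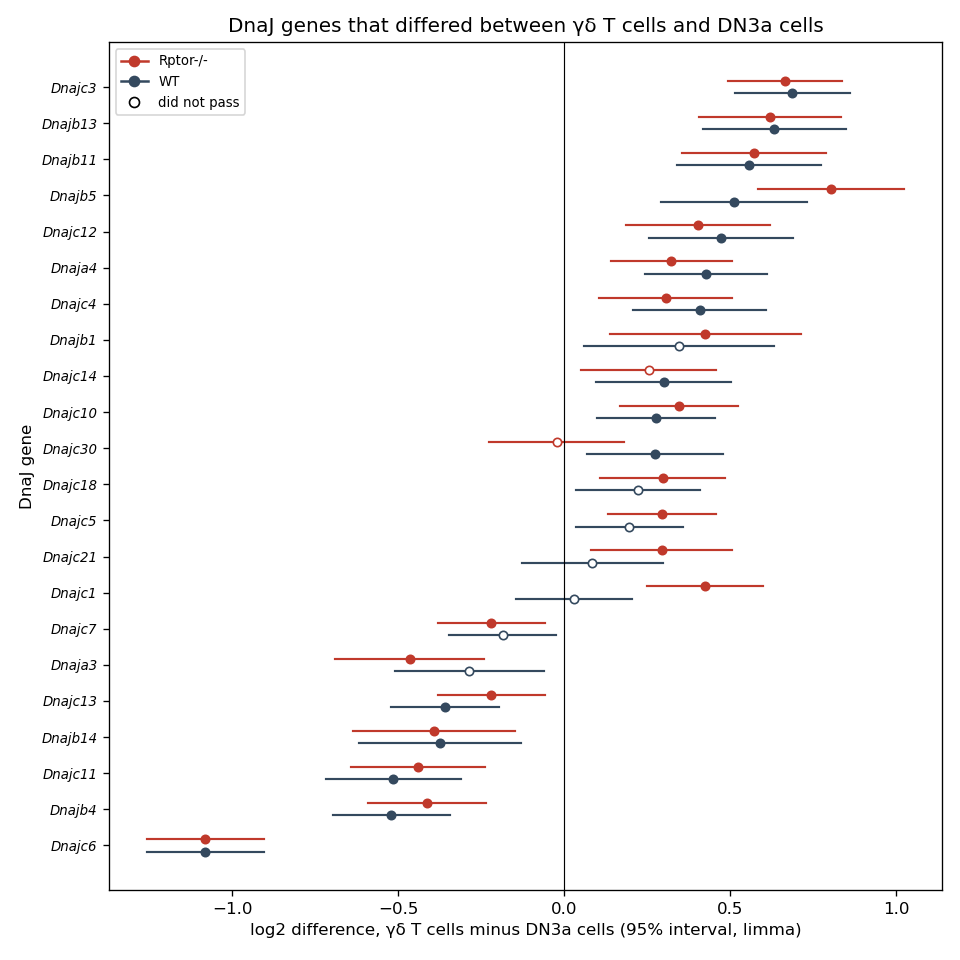
Log2 differences, γδ T cells minus DN3a cells, with limma 95% intervals, for each DnaJ gene that passed in at least one genotype; Rptor-/- in red above WT in dark blue, open points did not pass. Dnajc6, at -1.08 in both genotypes, is the lowest; the highest is Dnajb5 at 0.80 in Rptor-/- cells and Dnajc3 at 0.69 in WT cells.

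Dnajc6 had the largest difference. It read 9.30, 9.35 and 9.47 on Rptor-/- γδ arrays, against 10.59, 10.38 and 10.40 on Rptor-/- DN3a arrays, and 9.33, 9.31 and 9.25 on WT γδ arrays, against 10.31, 10.46 and 10.36 on WT DN3a arrays. The difference was -1.08 in each genotype (adjusted p = 3.42e-09 in Rptor-/- and 4.16e-09 in WT cells), leaving 47.2% of the DN3a signal. Dnajb4 (-0.41 in Rptor-/- and -0.52 in WT cells) and Dnajc11 (-0.44 in Rptor-/- and -0.52 in WT cells) were also lower in γδ T cells.

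Of the 4 stress-induced ER members 3 were higher in γδ T cells in both genotypes, where 13.9% of all genes were higher in Rptor-/- and 12.7% in WT cells. Dnajc3 read 10.46, 10.49 and 10.35 on Rptor-/- γδ arrays, against 9.73, 9.74 and 9.83 on Rptor-/- DN3a arrays (0.66, adjusted p = 2.71e-06), and 10.47, 10.42 and 10.55 on WT γδ arrays, against 9.69, 9.87 and 9.82 on WT DN3a arrays (0.69, adjusted p = 1.95e-06). Dnajb11 was higher by 0.57 in Rptor-/- and 0.56 in WT cells, and Dnajc10 by 0.34 in Rptor-/- and 0.28 in WT cells. The groups did not overlap in either genotype for these 3 genes. Dnajb9 did not pass in either (-0.02 in Rptor-/- and -0.24 in WT cells). Among the 15 other unfolded protein response genes, 7 were higher and 2 lower in Rptor-/- γδ T cells (13.9% and 13.6% of all genes). In WT γδ T cells 8 were higher and 2 lower (12.7% and 12.3% of all genes).

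Further members that were higher in γδ T cells of both genotypes were Dnajb13, a member known from sperm flagella (0.62 in Rptor-/- and 0.63 in WT cells), Dnajb5 (0.80 in Rptor-/- and 0.51 in WT), Dnajc12 (0.40 in Rptor-/- and 0.47 in WT), Dnaja4 (0.32 in Rptor-/- and 0.43 in WT) and Dnajc4 (0.31 in Rptor-/- and 0.41 in WT). Dnajc1 passed in Rptor-/- cells (0.42, adjusted p = 5.46e-04) and not in WT cells (0.03, adjusted p = 0.88), and the test of that difference gave 0.40 (95% interval 0.15 to 0.64, adjusted p = 0.206). Dnajc15 passed in neither genotype (-0.27 in Rptor-/- and -0.10 in WT cells).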

How the data were processed

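Sorted thymocytes were measured on 19 microarrays, 1 sample each, with group and replicate read off each title. The deposited values are log2 signals per probe set, made by the authors with RMA in Partek 6.6, per the submitters' processing notes, from 12 ng of total RNA amplified and labelled, per the labels. Which of them were normalized jointly was not given; the array medians fall into 2 sets, ISP and the rest. They were analysed unchanged, without a low-signal filter or pseudocount. Of 41345 probe sets 23521 had 1 gene symbol, 1814 several and 16010 were not named in the annotation used here; 23328 were updated through Entrez IDs with RefSeq names (GRCm38.p6). Several probe sets read 1082 of the 22180 genes (2 of them members), and the brightest on average was kept.

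Differences were tested with limma 3.58.1 (lmFit and eBayes, R 4.3.3) in 1 model of 6 group means over 19 arrays, with Benjamini-Hochberg adjustment over all genes; the threshold was 0.05. These covered 3 genotype comparisons, 3 differences between their effects and 2 comparisons of γδ with DN3a cells. Every adjusted p is limma's. The model was tested on simulated data with known changes. Single values also had an exact permutation test (two-sided), which cannot go below 0.1 with 3 against 3 arrays. Alternatives were a fit on only the arrays compared, a trended robust prior, median centring, quantile normalization over all 19 arrays, the mean of a gene's probe sets, a filter at the 25th percentile, the replicate number as a block, and leaving out each array. Other scalings moved the median of all genes by less than 0.1.

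The members, their roles and the related lists were chosen with earlier results of these data known. Values on every array are given for the mitochondrial, heat shock and ER stress members and for members past the threshold in a genotype comparison. Among the rest the 2 highest and 2 lowest differences are named. Of related lists, some of the genes past the threshold (at most 6 per list) and the direct Hsp70 partners are named, and not every gene that passed. The values of Dnajc6 and Dnajc21 by array were added after they were seen. Promoter windows came from RefSeq and were searched on both strands with Python 3.11.15; figures were drawn with matplotlib 3.10.9.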

Additional observations from a re-analysis of the deposited data

Results flagged for a closer look

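The genotype effect, Rptor-/- minus WT, differed between populations for 5 members by a test of the difference itself, limma's interaction over all 19 arrays. For Dnajc15 the effect in ISP cells was lower by 1.93 than in DN3a cells (log2 difference of effects -1.93) and lower than in γδ T cells (-1.76). For Dnajb1 the values were -0.76 against DN3a and -0.84 against γδ T cells, and for Dnajb2 -0.65 and -0.80. The effect of Dnaja3 in ISP cells differed from that in DN3a cells (-0.56) and that of Dnajc21 from γδ T cells (-0.55). All of these set ISP arrays against the others, so population and set of arrays cannot be told apart.

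In the 4 WT ISP arrays, 6 of 41 members had one array far from the others by Dixon's criterion, which chance alone meets for about 1 in 20 groups. Array 2 read 4.70 for Dnajb14, where the others read 5.11 to 5.13, 2.99 for Dnajc22, where the others read 3.22 to 3.25, and 2.75 for Dnajc5b, where the others read 3.01 to 3.04. It also read 6.40 for Dnajb12, where the other arrays hold one identical value of 6.38. Array 4 read 6.87 for Dnajc11, where the others read 7.06 to 7.09, and array 3 read 7.29 for Dnajc5, where the others hold 1 identical value of 7.58. Where the others are identical, as for Dnajb12 and Dnajc5, any other reading meets the criterion, however near. The count of 6 can therefore not be set against the chance rate.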

How the results depend on the processing

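Of 14 alternatives for the 12 ISP calls, fitting only the ISP arrays left 3 members called; other settings that leave out no array gave 8 to 13. Leaving out 1 array gave 5 to 14 members, with 5 without the third Rptor-/- and 7 without the first WT array. In γδ T cells leaving out 1 array gave 0 or 1 and in DN3a cells 0 throughout. The count of members that differed in effect ran from 2 to 5 (ISP against DN3a, 2 without the second Rptor-/- ISP array), from 3 to 5 (ISP against γδ) and was 0 (γδ against DN3a). Between γδ and DN3a cells it ran from 14 to 18 in Rptor-/- and from 12 to 14 in WT cells. Quantile normalization evened the directions, to 4 lower and 4 higher in ISP cells, 12 and 13 between Rptor-/- γδ and DN3a cells, and 9 and 9 between the WT ones. No alternative run reversed the direction of a difference that passed in the main fit or in that run. Differences that passed in neither were not followed for direction.

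The check of Rptor itself was fragile in ISP and γδ cells. For Rptor in ISP cells the exact two-sided permutation test gave p = 0.114, where 0.0571 is the smallest possible. In ISP cells the difference of -0.24 no longer passed with only the ISP arrays (-0.24), under quantile normalization (-0.22) or with the replicate block (-0.23). In γδ T cells the -0.30 was lost with only the γδ arrays (-0.30), with centring (-0.26) and with the block (-0.30). With each array left out Rptor ran from -0.31 to -0.18 in ISP, from -0.33 to -0.27 in γδ and from -0.63 to -0.53 in DN3a cells. The Rptor call was lost in 5 of 7 such fits in ISP cells (adjusted p up to 0.22 by limma), 6 of 6 in γδ T cells (0.0713 to 0.156) and 0 of 6 in DN3a cells.

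Over all genes, fitting only the arrays compared gave 1313 calls in ISP cells against 2759, 144 against 218 in DN3a and 345 against 677 in γδ T cells. Between γδ and DN3a cells that fit gave 4997 calls against 6115 in Rptor-/- cells. In WT cells it gave more, 5831 against 5560. Leaving out 1 array gave 1899 to 2671 in ISP, 124 to 254 in DN3a and 333 to 782 in γδ cells, 1013 to 1647, 853 to 1308 and 76 to 161 for the differences of effects (ISP against DN3a, ISP against γδ, γδ against DN3a), and 5179 to 6415 in Rptor-/- and 4644 to 5232 in WT cells for γδ against DN3a. The cause of these changes was not tested.

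Whether replicate numbers pair the samples was not settled. Correlations of same-numbered deviations were 0.10, 0.03 and -0.01 in ISP, 0.24, 0.01 and 0.17 in DN3a and -0.10, -0.003 and -0.02 in γδ cells. Differently numbered arrays were not correlated for reference. With the replicate block 13 members were called in ISP, 0 in DN3a and 1 in γδ cells. The block could not be fitted between γδ and DN3a cells.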
